A study of Aedes aegypti with 3 samples.

Results

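Genes that were abundant in the hindgut of the mosquito Aedes aegypti and that stood next to another abundant gene in the deposited table were examined, to describe whether abundant genes gather along the gene order, how alike their levels are and whether they vary together between libraries. An abundant gene was one at 100 TPM or more in every library, where TPM is the share of a gene in the length-corrected reads of its library, scaled to a total of 1000000. The set holds the abundant genes whose row directly before or after was also abundant, without those at 1000 TPM or more in all 3 libraries. Of all 18728 genes with a symbol, 10.1% had an abundant gene directly before or after them, and the rule gave 127 genes, 125 recorded as protein-coding and 2 as long non-coding RNA (lncRNA). The genes were selected on their TPM in these same 3 libraries, so that their levels and their number are a description and no test was made on them. The data comprised 3 libraries of 1 group, wild type females 5 to 15 days old, labelled as non-fed and kept on sucrose, each from a pool of 80 to 100 hindguts. Their column names carry the tag LVP-NF. All 3 libraries shared 28 °C, 70 to 80% humidity, 12 h light and 12 h dark, and Triton at 0.025%. There was no second diet, genotype or tissue, and the labels do not say whether the pools came from separate cohorts, so the spread between libraries may be partly technical. In a bulk sample, fewer cells of a type and less RNA per cell cannot be told apart.

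The hindgut forms the end of the insect gut. It is lined by cuticle, receives primary urine from the Malpighian tubules and recovers water, ions and amino acids before excretion. Genes that stand side by side on a chromosome can descend from a tandem duplication, can share a stretch of open chromatin or can be read from a common promoter region, while many neighbours share none of these. The rows of the table followed the gene order of the RefSeq annotation of the assembly AaegL5.0 at all 18728 positions, although other records can stand between 2 rows in that list. All 85 neighbouring pairs of abundant genes lay within 1 chromosome, and 83 were consecutive records in that list. Genes are given by their symbols, since the table and the reference at hand carry no product names.

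Abundant genes stood next to each other more often than their number alone would give, but almost always as single pairs. In all, 979 of 18728 genes (5.23%) were abundant. Of these, 8.68% were followed directly by another abundant gene, which made 85 neighbouring pairs. If 979 rows fell anywhere in the table, a closed formula gives 51.1 such pairs, so that the observed number was 1.66 times as high. The abundant genes formed 812 single rows, 79 runs of 2 and 3 runs of 3, whereas the formula gives 879.4 single rows, 45.9 runs of 2 and 2.40 runs of 3. There were 0 runs of 4, for which the formula gives 0.125. The excess was thus in runs of 2, and the count of runs of 3 lay close to the formula. Of the 82 runs with 2 or more abundant genes, 76 held at least 1 of the 127 genes and 6 consisted of genes at 1000 TPM or more.

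Within the 20 rows examined, the excess was seen at the row directly next to an abundant gene. At distances of 2 to 20 rows, the share of abundant genes with an abundant gene that far behind them lay between 3.98% and 6.84%, with a median of 5.72%, against 5.23% of all genes. The 8.68% at 1 row stood above the whole of that range. On chromosomes 1, 2 and 3 themselves 5.72%, 5.57% and 5.60% of rows were abundant, compared with 0.733% of the rows on unplaced sequence, so that the median at 2 to 20 rows lay at the level of the chromosomes. The ratio of pairs to the formula was similar along the genome, since the share followed by an abundant gene, divided by the share of abundant genes, was 1.67 on chromosome 1, 1.51 on chromosome 2 and 1.54 on chromosome 3. These chromosomes held 37, 46 and 44 of the 127 genes. The 1500 rows on unplaced sequence had 11 abundant genes and 0 pairs.

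**Figure D1:**
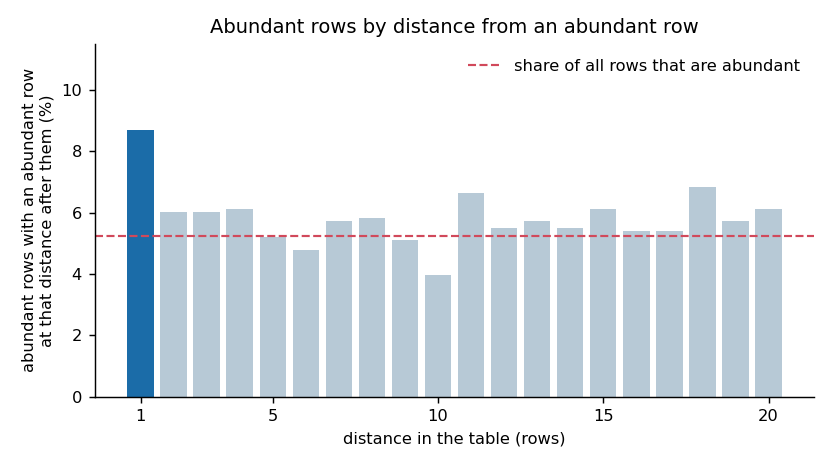
Share of the 979 abundant genes (y axis, percent) that had another abundant gene a given number of rows behind them in the table (x axis, 1 to 20 rows). The bar at 1 row reaches 8.68%, the other 19 bars lie between 3.98% and 6.84%, and the dashed line marks the 5.23% of all genes that are abundant.

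Part of the excess went with neighbours that were detected at all. The gene behind an abundant gene was at 1 TPM or more in every library in 60.1% of cases, compared with 46.9% of all genes. Among the 588 detected genes directly behind an abundant gene, 14.5% were abundant, against 11.1% of all detected genes. By level, the positions next to an abundant gene held 0.591 times the overall share of genes with a mean under 0.1 TPM, 1.04 times the share at 0.1 to 1 TPM, 1.09 times the share at 1 to 10 TPM, 1.32 times the share at 10 to 100 TPM, 1.52 times the share at 100 to 1000 TPM and 2.42 times the share at 1000 TPM or more. The order of these ratios followed the level of the neighbour. The 152 genes on the outer edges of the runs had a median of 5.78 TPM. The median was 6.17 TPM over all positions next to an abundant gene and 0.993 TPM over all genes. A run ends where the next gene is not abundant, so the outer genes include no abundant gene, whereas both other sets do. Of these 152 outer genes, 93 (61.2%) were detected, against 46.9% of all genes. Among the 152, 33 were lncRNAs, and of all 18728 genes 3680 were.

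When the level asked for was raised, the ratio of neighbouring pairs to the formula grew, while the pairs became fewer. At 10 TPM in every library, 38.7% of such genes were followed by another, against 28.0% of all genes. At 1000 TPM the share was 3.75%, against 0.854%. The number of neighbouring pairs over the formula was 1.38 at 10 TPM in every library, 1.42 at 20 TPM, 1.50 at 50 TPM, 2.00 at 200 TPM, 2.20 at 500 TPM and 4.42 at 1000 TPM, where it rested on 6 pairs against 1.36 from the formula. These sets are nested and share their genes. The longest run cannot shorten as the limit falls, because more rows qualify. It held 4 genes at 50 TPM and 10 genes at 10 TPM, and no formula value was set beside these lengths. Among protein-coding genes alone, with other rows passed over, 10.6% of abundant genes were followed by another, against 6.59% that were abundant. The longest run there was 4, also without a formula value beside it.

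Among the 85 pairs, those with a gene at 1000 TPM or more were over-represented most. There were 50 pairs of 2 genes of the set, 29 pairs of 1 gene of the set with a gene at 1000 TPM or more, and 6 pairs of genes at 1000 TPM or more. The formula gives 35.8, 14.0 and 1.36 for these kinds, so that the ratios were 1.40, 2.07 and 4.42. Of the 160 genes at 1000 TPM or more, 40 had an abundant neighbour, compared with 127 (15.5%) of the 819 abundant genes below that level. The 50 pairs contained 98 of the 127 genes, and the other 29 stood next to a gene at 1000 TPM or more alone.

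The 127 genes were of moderate abundance and lay in the range of the 692 other abundant genes that were under 1000 TPM in at least 1 library and had no abundant neighbour. Together they held 3.94 ± 0.26% of TPM (SD, n = 3). Their median was 232 TPM, with quartiles at 153 and 372 TPM, whereas the 692 genes had a median of 221 TPM, with quartiles at 157 and 413 TPM. In the set, 53 genes had a mean of 100 to 200 TPM, 45 of 200 to 400 TPM, 26 of 400 to 1000 TPM and 3 above that. Their gene models, as inferred from the steps between TPM values, had a median of 1619 bp and ranged from 289 to 6489 bp, compared with a median of 1794 bp for the 692 genes. Of the protein-coding genes, 63.2% had a single transcript in the reference, against 59.9% of the protein-coding genes among the 692. Each gene of the set rested on at least 324 inferred reads in every library, with a median of 4491 reads, so that counting error gave a median coefficient of variation of 1.49%. The median spread between libraries was 8.10%, which is several times counting error, and it was 9.24% among the 692 genes.

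The limits of the rule fell between genes of nearly the same level. LOC5579927 had 111, 124 and 102 TPM in replicates 1, 2 and 3, and LOC5580330 had 104, 109 and 104 TPM, both just inside. LOC5567076, next to an abundant gene, had 104, 101 and 99.8 TPM and missed the limit in replicate 3, and LOC5568303 had 99.5, 106 and 103 TPM and missed it in replicate 1. LOC5567454 had 99.7, 123 and 124 TPM and also missed it in replicate 1. With these, 39 genes next to an abundant gene were at 100 TPM in only 1 or 2 libraries. Of the 39, 32 fell short in replicate 1, compared with 11 in replicate 2 and 11 in replicate 3. Over the whole table, 1016, 1149 and 1153 genes reached 100 TPM in replicates 1, 2 and 3, each library taken by itself. At the upper limit, LOC5578927 was kept with 1104, 1018 and 998 TPM and LOC5564056 with 946, 1100 and 1004 TPM. LOC5568362 was left out with 1112, 1074 and 1280 TPM, as was LOC5569566 with 1202, 1117 and 1284 TPM.

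Within the set, levels of neighbours differed about as much as those of abundant genes of the same range anywhere in the table. Over all neighbouring pairs the median difference was above that of all pairs of abundant genes, but inside the range at 2 to 20 rows. Over all 85 pairs, the median absolute difference of log2(mean TPM + 1) was 1.57, against 1.26 over all pairs of abundant genes, and 35.3% were within 2-fold, against 42.6%. At distances of 2 to 20 rows, the median level difference lay between 0.863 and 1.89. Across the 50 pairs of 2 genes of the set, this difference was 0.85, with a median fold of means of 1.81, against 0.83 over all 334971 pairs of abundant genes under 1000 TPM. The share of these pairs within 2-fold was 56.0%, against 57.6% over all pairs. Across the 29 pairs with a gene at 1000 TPM or more, the median difference was 3.89, against 3.47 over all pairs of that make-up. In 46 of the 50 pairs the gene of higher mean was above its neighbour in each of the 3 libraries, and in 4 pairs it was below it in at least 1 library. In 42 pairs the lowest library of the higher gene also lay above the highest library of the lower gene, and in 8 pairs the ranges of the genes overlapped.

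**Figure D2:**
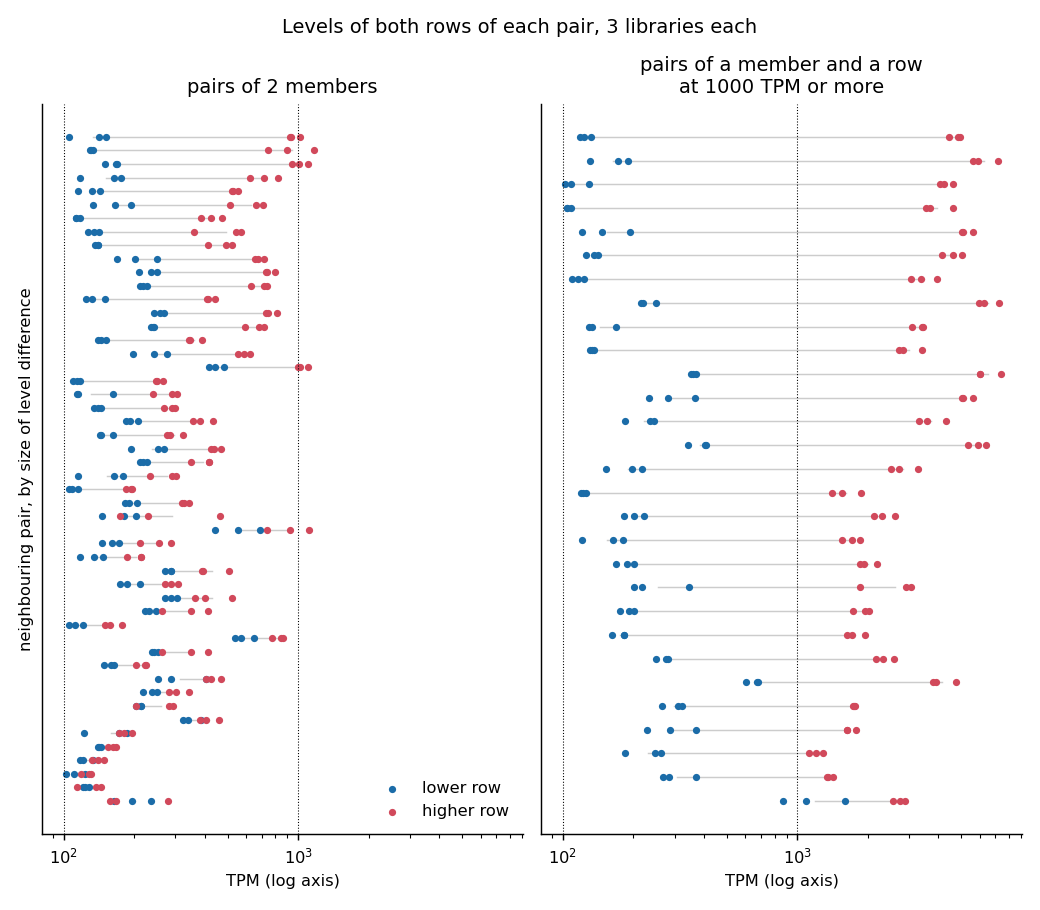
TPM (log axis) of both genes of each neighbouring pair in 3 libraries, with 1 line per pair sorted by level difference, the higher gene in red and the lower in blue, and a grey line between their means. On the left are the 50 pairs of 2 genes of the set, of which 8 have overlapping libraries; on the right are the 29 pairs with a gene at 1000 TPM or more. Dotted lines mark 100 and 1000 TPM.

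The pairs that differed most in level all joined a gene near the lower limit to one of the most abundant genes. LOC5573731 had 123, 119 and 132 TPM in replicates 1, 2 and 3, and its neighbour LOC5573732 had 4430, 4959 and 4840 TPM. The ratio between them was 36.0, 41.7 and 36.7 in the 3 libraries, and their means differed 38.1-fold. LOC5574484 had 129, 102 and 108 TPM beside LOC5574485 with 4626, 4216 and 4049 TPM, a 38.0-fold difference of means, with ratios of 35.8, 41.2 and 37.5 in the 3 libraries. LOC5575103 had 131, 189 and 173 TPM beside LOC5575105 with 7191, 5902 and 5587 TPM, a 37.9-fold difference of means, but here the ratio was 54.9, 31.2 and 32.3. The libraries ran in opposite directions, since LOC5575103 was lowest in replicate 1, where LOC5575105 was highest. LOC5575103 is also the longer gene of this pair, at 4235 bp against 651 bp, and longer gene models went with lower values in replicate 1 across the set. Within the set, the widest pair, chosen after its values were seen, was LOC5565836 with 106, 142 and 152 TPM beside LOC5565837 with 935, 919 and 1022 TPM, a 7.20-fold difference of means.

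The pairs most alike in level did not all vary alike. LOC5571034 had 157, 167 and 279 TPM and LOC110678815 had 164, 196 and 237 TPM, so that means of 201 and 199 TPM came with a spread between libraries far wider than the difference between the genes. Both were lowest in replicate 1 and highest in replicate 3. LOC5564769 had 121, 123 and 128 TPM and LOC5564781 had 114, 137 and 145 TPM, again with overlapping libraries. LOC5579926 had 119, 129 and 131 TPM and LOC5579927 had 111, 124 and 102 TPM. Here the lowest library differed, replicate 1 for LOC5579926 and replicate 3 for LOC5579927, although the gene models were of nearly equal length at 1851 and 1887 bp.

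**Figure D3:**
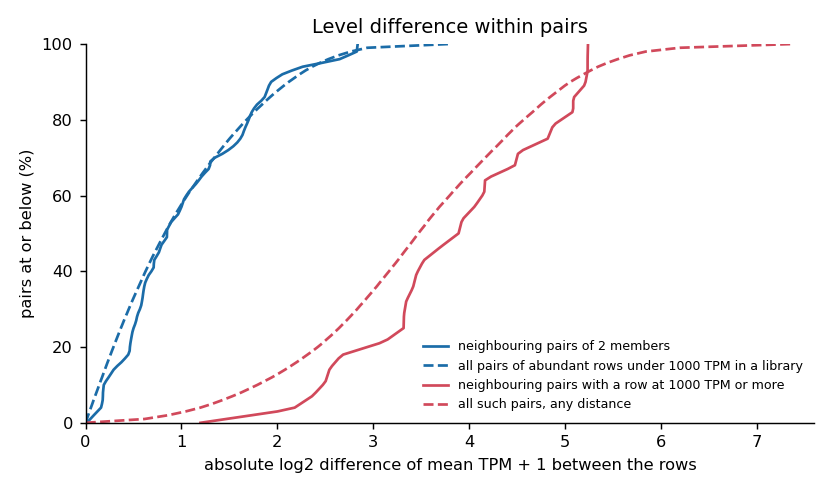
Cumulative share of pairs (y axis, percent) by the absolute log2 difference of mean TPM + 1 between their genes (x axis). Solid blue is for the 50 neighbouring pairs of the set and dashed blue for all pairs of abundant genes under 1000 TPM. Their medians are 0.85 and 0.83, but lower down the solid line lies to the right, with 0.46 against 0.29 at percentile 20. Solid red is for the 29 pairs with a gene at 1000 TPM or more and dashed red for all pairs of that make-up. There the solid line runs to the right up to percentile 92, with medians of 3.89 and 3.47, and to the left above it.

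Both lncRNAs of the set stood next to a protein-coding gene, which the rule made likely, since 963 of the 979 abundant genes were protein-coding. LOC5573394, an lncRNA with a model of 617 bp, had 145, 140 and 142 TPM and varied by 1.72% between libraries. Its protein-coding neighbour LOC5573395 had 163, 154 and 168 TPM, so that the lncRNA was lower in every library by a small margin. LOC5565444, an lncRNA of 921 bp, had 382, 356 and 434 TPM, beside the protein-coding gene LOC5565445 with 207, 184 and 192 TPM. The lncRNA was the higher gene of that pair in every library, by 1.84, 1.93 and 2.26 times. Of all 3680 lncRNAs in the table, 0.353% were abundant, against 6.59% of protein-coding genes.

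The 3 runs of 3 were singled out after their values were seen, because no run reached 4. In the first, LOC5574977 had 713, 629 and 734 TPM, LOC5574976 had 226, 212 and 218 TPM and LOC5574975 had 417, 351 and 417 TPM. The outer genes were higher than the middle gene in every library, and replicate 2 was the lowest library of all 3 genes. In the second, LOC110676279 had 238, 244 and 252 TPM, LOC5573016 had 262, 411 and 349 TPM and LOC5573015 had 222, 230 and 249 TPM. The middle gene varied far more than its neighbours and was highest in replicate 2, whereas both neighbours were highest in replicate 3. Its model of 5526 bp was also several times as long as theirs, at 993 and 1804 bp.

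In the third run a gene at 1000 TPM or more stood between 2 genes of the set. LOC5573132 in the middle had 5049, 5090 and 5623 TPM. LOC5573204 before it had 121, 148 and 193 TPM, and LOC5573133 behind it had 232, 281 and 367 TPM. The genes on either side varied alike: the ratio of LOC5573133 to LOC5573204 was 1.92, 1.91 and 1.91 in the 3 libraries, although the highest library of each was 1.58 times its lowest on the TPM + 1 scale. The middle gene was also highest in replicate 3 but varied less.

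**Figure D4:**
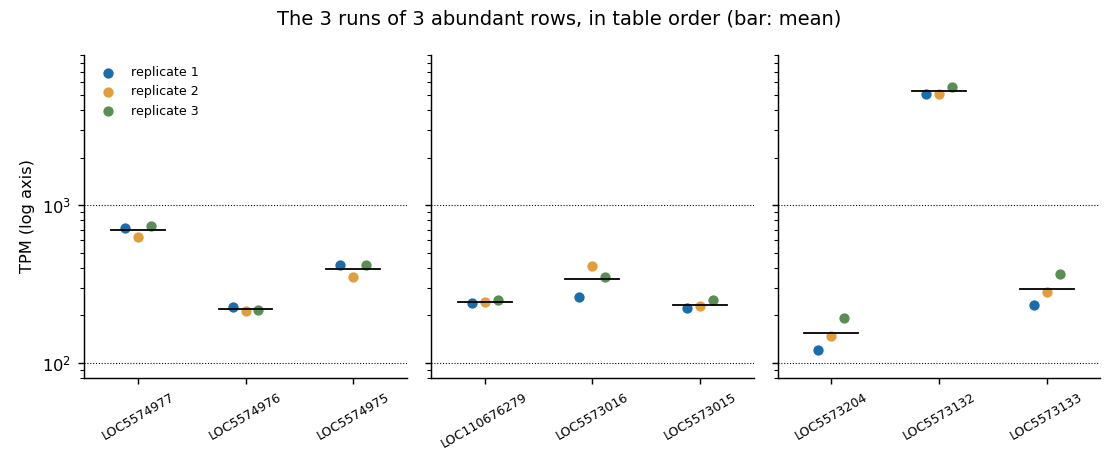
TPM (log axis) of the 9 genes in the 3 runs of 3 abundant rows, in table order, with 1 point per library and a bar at the mean. In the right panel the middle gene lies at 5049 TPM or more in all 3 libraries, and the outer genes are lowest in replicate 1 and highest in replicate 3.

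The variation that neighbours shared between libraries was described for each kind of pair. Each library's deviation was taken as log2(TPM + 1) less the mean of the 3 libraries for that gene, and a pair was described by the root mean square difference of these deviations, where 0 means that both genes moved alike. For abundant genes 2 to 20 rows apart, the median of this measure lay between 0.131 and 0.183. Over all 85 neighbouring pairs the median was 0.163, against 0.164 over all pairs of abundant genes. Without replicate 1 these medians were 0.088 and 0.082. Over the 50 pairs of 2 genes of the set it was 0.131, against 0.147 over the 4703 pairs of the same 98 genes that did not stand next to each other, a comparison added after the data were seen. The difference between these medians was -0.016. Taken library by library, as the median absolute difference of deviations, it was -0.009, -0.017 and -0.022 in replicates 1, 2 and 3, with an SD of 0.006. It was below 0 in each library, but the 3 deviations of a gene sum to 0, so that the libraries are not independent here, and no test was made. On chromosomes 1, 2 and 3, with 17, 16 and 17 of the 50 pairs, the medians were 0.103, 0.152 and 0.127. The value of chromosome 2 lay above the 0.147 of the pairs that were not neighbours, which were taken over all chromosomes together. Over the 29 pairs with a gene at 1000 TPM or more the median was 0.207, against 0.178 over all pairs of that make-up.

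Replicate 1 was the lowest library for most genes of the set, whether or not they were neighbours. It was lowest for 72 of the 127 genes (56.7%) and for 58.7% of the 692 abundant genes without an abundant neighbour, and replicate 3 was the highest for 67. Over the genes of the whole table that were above 0 in every library, the median log2 ratio to the geometric mean of the libraries was taken. Recentred so that the 3 values sum to 0, it was -0.17, 0.11 and 0.06 in replicates 1, 2 and 3. Both genes had the same lowest library in 28 of the 50 pairs (56.0%), against 37.5% of the 4703 pairs that were not neighbours, 41.7% of all pairs of the 127 genes that were not neighbours and 43.4% of all pairs of abundant genes under 1000 TPM. Over all 85 neighbouring pairs the share was 40.0%, against 39.0% over all pairs of abundant genes. For the 29 pairs with a gene at 1000 TPM or more, this held for 5 (17.2%), against 27.9% over all such pairs. Deviations also ran with gene length: across the 127 genes, Spearman's rho between model length and deviation was -0.40, 0.51 and 0.03 in replicates 1, 2 and 3, as a description of genes that share these libraries. With the length trend removed, the median deviation differences were 0.108 for the 50 pairs and 0.121 for the 4703. On chromosomes 1, 2 and 3 the 50 pairs then had medians of 0.089, 0.105 and 0.131, so that chromosome 3 lay above the 4703. In single pairs the difference fell or rose with the trend removed. It went from 0.252 to 0.047 for LOC110676279 and LOC5573016, whose models differ several-fold in length. For LOC5571186 and LOC5571183 it went from 0.157 to 0.246. How far the length trend accounts for a single pair was not tested.

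**Figure D5:**
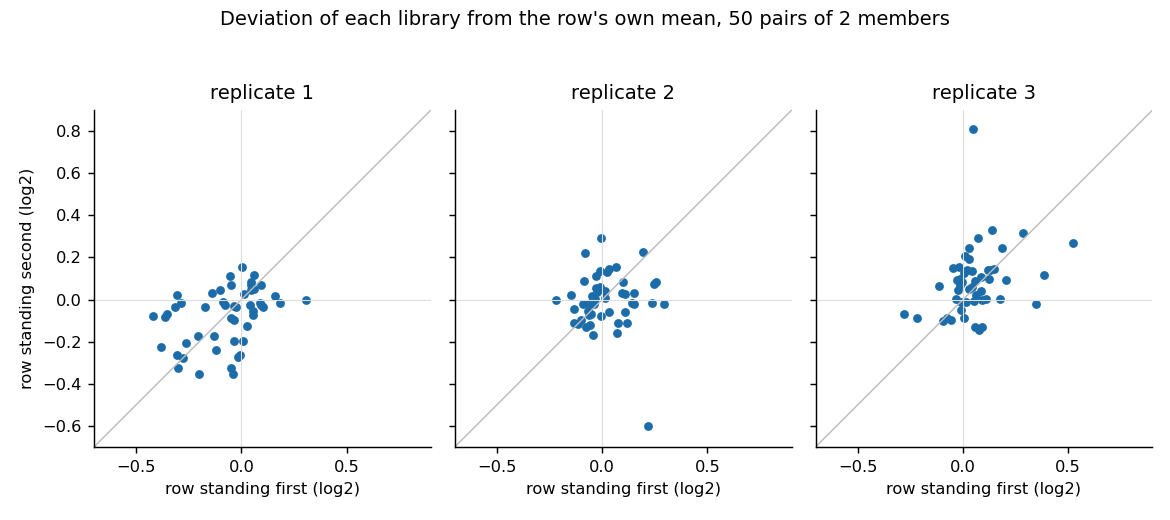
Deviation of each library from a gene's own mean on the log2(TPM + 1) scale, for the gene standing first (x axis) and the gene standing second (y axis) in the 50 pairs of 2 genes of the set, with 1 panel per library; the diagonal marks equal deviations. Many pairs have both genes on the negative side in replicate 1 or on the positive side in replicate 3, but many others do not. The far point in replicates 2 and 3 is the pair of LOC5567109 and LOC5579417.

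The 3 pairs of widest spread among those that moved most alike differed in how constant their ratio was. LOC5570416 had 738, 919 and 1108 TPM and LOC5570420 had 442, 557 and 691 TPM. Both ranked the libraries in the same order, and their ratio was 1.67, 1.65 and 1.60. LOC5568471 had 513, 662 and 706 TPM and LOC5568472 had 134, 166 and 193 TPM, with ratios of 3.82, 3.99 and 3.65. LOC5572190 had 186, 214 and 213 TPM and LOC5572191 had 117, 147 and 134 TPM, with ratios of 1.59, 1.45 and 1.59. All 6 genes were lowest in replicate 1, the library that was lowest for most genes of the set.

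The closest match, named after its values were seen, did not follow that pattern. LOC110678469 had 340, 322 and 387 TPM, and LOC5568784 had 405, 382 and 458 TPM. Both were lowest in replicate 2 and highest in replicate 3, the ratio was 1.19 in each library, and the root mean square difference of their deviations was 0.003, the smallest of the 50 pairs. Their models were 870 and 1255 bp long. With the length trend removed, the difference of this pair was 0.030, and it was no longer the smallest, since another pair then had 0.005.

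The opposite case was the pair of LOC5567109 and LOC5579417. LOC5579417 had 229, 174 and 465 TPM, the largest ratio between libraries in the set, while LOC5567109 had 145, 203 and 180 TPM. LOC5579417 was lowest in replicate 2, where its neighbour was highest, and the difference of their deviations was 0.648. LOC5579417 was the only gene of the set that differed at least 2-fold across the libraries on the TPM + 1 scale, that is 1 of 127. Over all abundant genes this share was 2.15%, over genes that averaged at least 10 TPM it was 5.25%, and among the 692 abundant genes without an abundant neighbour 20 did so (2.89%). At a coefficient of variation of 20% or more, the shares were 13.4% of the set and 14.7% of the 692 genes, so that variable genes were about as frequent in both. The gene with the smallest spread, LOC5568076, had 236, 244 and 240 TPM and was likewise chosen after its values were seen.

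Gene models rarely overlapped within the pairs. In AaegL5.0 the spans of 1 of 85 pairs overlapped, LOC5571186 and LOC5571183, against 15.6% of all neighbouring rows. Among neighbours that were both protein-coding the share was 13.6% in the whole table. LOC5571186 had 287, 271 and 288 TPM and LOC5571183 had 390, 392 and 505 TPM. Reads of overlapping genes may be assigned to either gene or to neither, so that both levels are uncertain. This pair was named after the overlap was found.

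Neighbouring pairs were also described by the lengths of their gene models, which the rule did not use directly. In 6 of the 50 pairs (12.0%) the lengths lay within 10% of each other, against 8.01% over all pairs of abundant genes under 1000 TPM. The median absolute log2 difference in length was 0.60 in the 50 pairs, against 0.95 over all such pairs. Over all 85 neighbouring pairs this median was 0.76, and 9.41% had lengths within 10% of each other. Among abundant genes of any level 2 to 20 rows apart, the median lay between 0.56 and 1.11, and that share between 0% and 17.5%. The values of the 50 pairs and of the 85 pairs lay inside these ranges. The inferred lengths can be short by a whole factor for some genes. Length enters TPM as a divisor, so that it is not fully independent of the rule.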

How the data were processed

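RNA was measured in 3 pools of hindguts. Per the submitters' processing notes, Trimmomatic 0.36 and STAR 2.5.2b were used. Quantifier, genome build and annotation: not given in the sources used here. As values, the authors deposited TPM values, reads per gene divided by model length and scaled to 1000000 per library, in 1 table with a column per library. TPM is a share, so a rise in some genes lowers all others. Columns were matched by the names in the labels, and 0 were left unmatched.

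The row without a symbol was dropped and the rule applied in row order. All 18728 symbols matched AaegL5.0, which was used for biotypes, transcript numbers, chromosomes, gene order and overlap of gene spans, with no coordinates printed. Product names, strand and sequences were not analysed here, so the planned lists by product or sequence, the tissue markers, protein similarity and gene orientation were not run.

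Reads and model lengths were inferred by seeking, up to 60000 bp, the shortest whole length at which the values of all libraries became whole reads to the 4th decimal. This was tested on simulated data, where reads and length of some genes came out divided by a whole number. It solved 12962 of 13015 genes and all 979 abundant ones, with 20427591, 19458773 and 20098440 reads in replicates 1, 2 and 3. At such depth counting error is small for every gene of the set, but it covers counting alone.

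Means carry the SD over 3 libraries. Log values use a pseudocount of 1. The length trend was removed from deviations by lowess, spanning 0.3 of the genes that averaged at least 10 TPM. The number of runs in a random order came from a formula, not from shuffling. With 1 group and genes chosen on these values, no p-value is given. Named genes follow a rule: the 3 pairs most and the 3 least different in level, the 3 pairs of widest spread among the 13 of smallest deviation difference, the gene of largest ratio between libraries, genes at the limits and all lncRNAs. Runs of 4 or more were to be named as well. The number of 13 pairs was settled after the data were seen. Members and lists were chosen with earlier results of these data known. Alternatives covered the TPM limit, the mean in place of every library, each library left out, scaling, biotype, gene order, pseudocount and length. Python 3.11.15, numpy 2.4.6, pandas 2.3.3, scipy 1.17.1 and statsmodels 0.14.6 were used.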

Additional observations from a re-analysis of the deposited data

Results flagged for a closer look

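The row without a gene symbol is outside the comparisons above and was well above 0 throughout, with 2230, 1766 and 1716 TPM in replicates 1, 2 and 3 and a mean of 1904 TPM. It stood at the end of the table, was dropped before neighbours were taken, and the study has no control library to compare it with. Groups of 3 libraries are too small for a check of single outlying samples, so none was made.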

How the results depend on the processing

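Neighbours were more often abundant than all genes in all 9 alternatives run, but the size of the set followed the limit. It held 424 genes in 221 runs at 50 TPM in every library and 41 genes in 25 runs at 200 TPM. The share of abundant genes followed by another was 14.3% at 50 TPM (against 9.55% of all genes), 5.92% at 200 TPM (against 2.97%), 9.86% with the mean at 100 TPM (against 5.91%) and 10.6% among protein-coding genes. Leaving out each library gave 8.71 to 9.99%, 128 to 169 genes and 77 to 96 runs, highest without replicate 1. The ratio of pairs to the formula, added after the data were seen, was 1.50 at 50 TPM, 2.00 at 200 TPM, 1.65 after median-of-ratios scaling, 1.61 among protein-coding genes, 1.62 over consecutive AaegL5.0 records and 1.65 to 1.70 with each library left out.

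The median level difference of all 85 pairs, 1.57 against 1.26 over all pairs of abundant genes, was above that of all pairs in 11 of 12 alternatives. It was 1.31 at 50 TPM, 1.22 at 200 TPM (against 1.24 over all pairs, the exception), 1.42 with the mean at 100 TPM, 1.60 after median-of-ratios scaling, 1.30 among protein-coding genes, 0.85 in pairs of 2 genes of the set, 1.60 without the overlapping pair, a choice made after the data were seen, and 1.44 to 1.54 with each library left out. The median deviation difference of 0.163 was 0.131 in pairs of 2 genes of the set, 0.134 with the length trend removed and 0.088 to 0.148 with each library left out, lowest without replicate 1. It lay below that of all pairs in 8 of 13 alternatives, so neighbours as a whole showed no steady direction. Pairs of 2 genes of the set, a comparison added after the data were seen, lay below genes of the set that were not neighbours in all 12 alternatives, by -0.0075 among protein-coding genes to -0.032 with the mean at 100 TPM. A split by chromosome was not among the 12, and the 16 pairs on chromosome 2 had a median of 0.152, above 0.147. The cause of these changes was not tested, except that other limits and fewer libraries change which genes enter. Means of the 50 named genes, 39 by the rule and 11 added later, stayed within 1 SD in all 200 alternatives, which says nothing about stability because leaving out 1 of 3 libraries cannot move a mean further. No paired analysis was possible because there is only 1 group of libraries. Alternatives on protein similarity were not run.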

Other observations

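Of the 13 abundant lncRNAs, 2 belonged to the set, and of the 3 abundant transcribed pseudogenes, 0 did. Of all 979 abundant genes, 127 belonged to it. Replicate 1 was the highest library for 25 of the 40 genes at 1000 TPM or more that had an abundant neighbour, and the lowest for 7. In the set of 127 genes it was the highest for 26 and the lowest for 72. Those 40 genes had shorter models, with a median of 1022.5 bp against 1619 bp in the set. Among them, LOC5570243 with 3735, 3133 and 2978 TPM and its neighbour LOC5570244 with 7649, 6436 and 5959 TPM kept a ratio of 2.05, 2.05 and 2.00 in replicates 1, 2 and 3, with both highest in replicate 1. This pair was chosen after its values were seen. Genes at 1000 TPM or more without an abundant neighbour were not compared with the 40 in library order or model length.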
